A study of Homo sapiens with 14 samples.

Results

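The icSHAPE profile of living K562 cells (*in vivo*) was compared with that of RNA extracted from K562 cells and folded again in the tube (*in vitro*). K562 is an established human leukemia line with features of the erythroid lineage. In both arms RNA was reacted with 100 mM NAI-N3 for 5 min, and 3 libraries treated with DMSO alone, the solvent of the reagent, served as controls. By the labels the *in vivo* profile rests on 3 NAI-N3 libraries and the *in vitro* profile on 2, and all 8 libraries are from K562 material that the methods enriched for poly(A) RNA. The processed profiles pool the libraries, with a single profile per condition. The spread between libraries cannot be seen in them, so the differences are described without tests. The 14 libraries of the series also include 6 from icLASER, a second reagent used here only for side values.

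The profiles listed 16295 transcripts *in vivo* and 12256 *in vitro*, of which 11713 were in both. At least 100 nucleotides were scored in both profiles in 11499 of them, and 214 fell short. For 11288 of these the identifier was in the reference annotation or was one of the rRNA rows, 18S and 28S, and 211 transcripts with other identifiers were left out. Each gene was represented by its most abundant such transcript, by the mean of both RPKM values, which gave 3826 genes, out of 6780 genes with a transcript in any of the 4 profiles of the series. Both profiles begin at an RPKM slightly above 5, so a gene that fell under that level in either condition could not enter.

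NAI-N3 belongs to the SHAPE reagents, which acylate the 2′-hydroxyl of the ribose preferentially where the nucleotide is flexible, as in loops and unpaired stretches. Reverse transcriptase stops at the adduct, and the azide of the reagent allows the modified RNA to be captured through biotin before sequencing. Inside cells, proteins, ribosomes and helicases act on the same RNA that folds alone in the tube, so the pair of profiles compares an RNA in its cellular setting with the same sequence by itself.

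The erythroid identity of the cells was visible in both profiles. Of 14 erythroid markers 12 were listed in each profile, led by the fetal globin mRNA HBG1 at an RPKM of 2652 *in vivo* and 2105 *in vitro*. GATA1, the master transcription factor of the lineage, had an RPKM of 87.8 and 73.1. TAL1 and ALAS2 were in neither profile. Of 7 markers of other cell types, 6 were in neither profile, and the epithelial adhesion gene EPCAM was listed at 23.7 and 24.1.

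RPKM is a read count scaled for transcript length and library size, and it was similar for most genes. The median log2 ratio of *in vivo* to *in vitro* RPKM was 0.13, and the quartiles were -0.06 and 0.29. Across the 3826 genes the RPKM values of the profiles had a Spearman rho of 0.941. RPKM was at least 2-fold lower *in vivo* for 100 genes, 2.61% of all, and at least 2-fold higher for 27 genes, 0.706% of all. All but 4 of these 27 were pseudogenes, and with pseudogenes left out the share higher was 0.145%. With at least 500 nucleotides scored, 0.842% of genes were at least 2-fold lower and 0.337% higher. Over all transcripts the shares were 1.45% and 0.292%. Which of the libraries enter the deposited RPKM is not stated, so the capture of modified RNA and its abundance cannot be told apart in a ratio.

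The lowest ratios were in structural RNAs that carry no poly(A) tail. All 33 snRNA genes were at least 2-fold lower *in vivo*, with a median log2 ratio of -3.96, against 2.61% of all genes. RNU4-2, a U4 RNA of the spliceosome, had an RPKM of 93.6 *in vivo* and 5428 *in vitro*, and its neighbour RNU4-1 had 49.7 and 3325. RNU1-1, the U1 RNA that recognises 5′ splice sites, had 98.5 and 1424, and all 16 U1 copies measured were at least 2-fold lower. The near-identical copies of these RNAs may share reads, which was not tested, so they do not count as separate observations.

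The RNAs of the ribosome showed the same direction. The RPKM of 18S was 1484 *in vivo* and 18459 *in vitro*, and that of 28S was 2299 and 11084. The 4 annotated copies of 5.8S rRNA, which may share reads, lay farther apart, with a median log2 ratio of -5.73. The 2 mitochondrial rRNAs, which are made and kept inside the mitochondrion, lay on either side of equality. MT-RNR1 had 3171 *in vivo* and 6295 *in vitro*, just short of 2-fold, and MT-RNR2 had 12701 and 11206.

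Among the snoRNAs, which guide or take part in rRNA processing, 8 of 10 genes were at least 2-fold lower *in vivo*, against 2.61% of all genes. The U3 genes SNORD3C, SNORD3B-1 and SNORD3B-2 had ratios of 0.0777, 0.0805 and 0.0805, and SNORA73A had 15.7 *in vivo* and 441 *in vitro*. Of the misc_RNA genes, 15 of 35 were at least 2-fold lower, again against 2.61%. By family, all 7 copies of 7SK, which restrains transcription elongation in the nucleus, were lower, and 8 of 28 copies of 7SL, the RNA of the signal recognition particle in the cytoplasm, passed the limit. The main 7SK gene had an RPKM of 113 and 997, and RN7SL2 had 2661 and 5216.

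Longer RNAs with low ratios included ENSG00000261889, a lncRNA transcript of 748 nucleotides, with an RPKM of 18.3 *in vivo* and 857 *in vitro*, a log2 ratio of -5.55, and an r of 0.0557. The gene MALAT1, a nuclear noncoding RNA, is represented here by a transcript of 352 nucleotides (ENST00000620902, chr11:65499042-65499706 on GRCh38), which had an RPKM of 28.3 *in vivo* and 694 *in vitro*, a log2 ratio of -4.62. Its scores had a within-transcript Pearson r of 0.845 and a Spearman rho of 0.435 between the profiles. WDR74, a ribosome assembly factor, had 8.39 and 123, but its transcript contains all 191 bases of the U2 gene RNU2-2P on the same strand, and RNU2-2P itself had 16.4 and 349. The reads of WDR74 and RNU2-2P cannot be told apart here.

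Of the 2217 protein_coding genes 9 were at least 2-fold lower, against 2.61% of all genes. Beside WDR74 they were HSPA1A, HSPA1B, H1-4, H4C3, H2AC8, ANP32B at 109 and 264, the growth factor IGF1 at 5.20 and 15.6, and the splicing factor SF3B2 at 9.91 and 21.5. HSPA1A and HSPA1B, near-identical genes for the inducible chaperone HSP70, had an RPKM of 23.8 and 30.4 *in vivo* against 128 and 155 *in vitro*. They were the only 2 of 31 chaperone mRNAs past the 2-fold limit. Histone mRNAs of the replication-dependent type, most of which end in a stem-loop in place of a poly(A) tail, were added as a list after their values were seen. Of 21 measured, 3 were at least 2-fold lower, H1-4 at 7.34 *in vivo* and 27.0 *in vitro*, H4C3 at 15.5 and 54.0, and H2AC8 at 9.51 and 21.9, and the median log2 ratio of the list was -0.33. The share of all genes past that limit was 2.61%. The 3 most abundant members had ratios above 1, with H1-2 at 138 and 128, H2AC25 at 132 and 119, and H2BC12 at 100.0 and 87.3. The histone variant mRNAs, which are polyadenylated, had a median of 0.10 over 7 genes.

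Genes at least 2-fold higher *in vivo* that are not pseudogenes were 4, the embryonic globin HBZ at 521 and 260, HBM, a further globin gene, at 40.1 and 18.6, the homeobox factor MSX1 at 967 and 484, and DHCR7, an enzyme of cholesterol synthesis, at 14.8 and 7.22. HBZ, MSX1 and DHCR7 were close to the limit, with ratios of 2.00, 2.00 and 2.05. In MSX1 64.3% of nucleotides scored 0 *in vivo* and 86.1% *in vitro*, beside medians of 42.3% and 64.1% over all genes. The 13 mitochondrially encoded mRNAs, for subunits of the respiratory chain, had a median ratio of 1.59, and none of them reached 2-fold. MT-CO3 had an RPKM of 19330 *in vivo* and 12168 *in vitro*, MT-CO1 had 3659 and 1996, and MT-ND6, from the opposite strand of the genome, had 143 and 133. The 4 highest ratios under the rule for named genes belonged to nuclear pseudogenes of mitochondrial sequence, MTND4P24, MTCO1P2, MTCO1P53 and MTND4P35, at 2.67, 2.66, 2.52 and 2.49. Of 22 such pseudogenes 10 were at least 2-fold higher, against 0.706% of all genes. They share sequence with the mitochondrial genes, so their reads may come from either.

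Nuclear gene lists had medians on both sides of the 0.13 of all genes. A list of 5 noncoding RNAs, most of them nuclear but with the cytoplasmic RN7SL2 included, had a median log2 ratio of -0.46, with MALAT1 at -4.62, RN7SL2 at -0.97 and NEAT1 at -0.46. The mRNAs of 12 glycolytic enzymes had a median log2 ratio of 0.56, with ENO1 at an RPKM of 360 *in vivo* and 251 *in vitro* and GAPDH at 243 and 159. The 8 globin mRNAs had a median of 0.41. HBZ, the embryonic zeta globin, was the only member of that list at least 2-fold higher, against 0.706% of all genes. HBM is not in that list. The medians were 0.35 for 16 aminoacyl-tRNA synthetases, 0.31 for 10 tubulin and actin genes and 0.18 for 45 translation factors. For 50 mRNAs of the large and 33 of the small ribosomal subunit they were 0.08 and 0.07. No member of these 2 lists passed 2-fold in either direction, against 2.61% of all genes lower and 0.706% higher. Of protein_coding genes 0.406% were at least 2-fold lower. The 16 hosts of snoRNAs had a median of -0.12, and SNHG1 with 65.8 *in vivo* and 203 *in vitro* was among the 2 of them that were at least 2-fold lower, against 2.61% of all genes. The transcript that stood for SNHG1 is annotated as a retained intron, and whether it holds reads of snoRNAs was not tested.

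Some transcripts were listed in a single profile. Of the 12256 transcripts listed *in vitro*, 543 were in that profile only, with 51 snoRNAs and 34 snRNAs among them. Among the 3826 genes measured in both profiles 10 were snoRNAs and 33 snRNAs. That set holds 1 transcript per gene with at least 100 nucleotides scored, so its shares are not those of all listed transcripts. Of the 543, 119 had an RPKM of at least 20, and 49 of these were snoRNAs and 30 snRNAs. They were led by SNORD100 at 476 and SNORD45C at 421, both guides of rRNA methylation. Of the 16295 transcripts listed *in vivo*, 4582 were in that profile only. Of these 2242, 48.9%, were protein_coding, 2 were snRNAs and 1 was a snoRNA. In the set of 3826 genes 2217 were protein_coding. An RPKM of 20 was reached by 26 of the 4582, of which 11 were processed pseudogenes, beside 978 of the 3826 genes. The highest of these 26 were isoforms of PSG2 at 2763, ZNF302 at 1409 and the lncRNA SOX2-OT at 1379. Beside them STAG2, a cohesin subunit, had an isoform listed in both profiles at 1882 and 1010.

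The score of a nucleotide runs from 0 to 1, and its scale bears on every comparison of means. In each profile the median transcript had 5.05% of its scored nucleotides at exactly 1, and from the 5th to the 95th percentile of transcripts the share moved only from 5.00% to 5.26% *in vivo* and from 5.00% to 5.22% *in vitro*. The scores thus place each nucleotide against the top of its own transcript, and a mean score describes how evenly reactivity is spread along the RNA, not how much reagent it took up.

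The mean score per gene had a median of 0.172 *in vivo* and 0.141 *in vitro*, and the difference had a median of 0.0246 with quartiles of 0.0113 and 0.0374. The difference was above 0 in 3435 genes and below 0 in 391 genes, 10.2% of all. It was at least 0.05 in 371 genes, 9.7% of all, and at most -0.05 in 4 genes, 0.105% of all. When both profiles were divided by their means over these genes, which removes the common shift, the median turned to -0.00248, with 0.627% of genes at least 0.05 higher and 1.7% at least 0.05 lower *in vivo*, so the differences below are best read against 0.0246 and not against 0.

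The shift went with fewer scores of exactly 0. A median of 42.3% of the nucleotides of a gene scored 0 *in vivo* and 64.1% *in vitro*, and the share was lower *in vivo* in 3708 genes. The Gini index, which is 0 when all nucleotides score alike and nears 1 when a few carry all the signal, had a median of 0.726 *in vivo* and 0.807 *in vitro*, and it was lower *in vivo* in 3640 genes. With scores of 0 left out the median difference in Gini index turned from -0.0607 to 0.0700. Read depth is not in the profiles, and its part in the zeros was not tested.

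**Figure D1:**
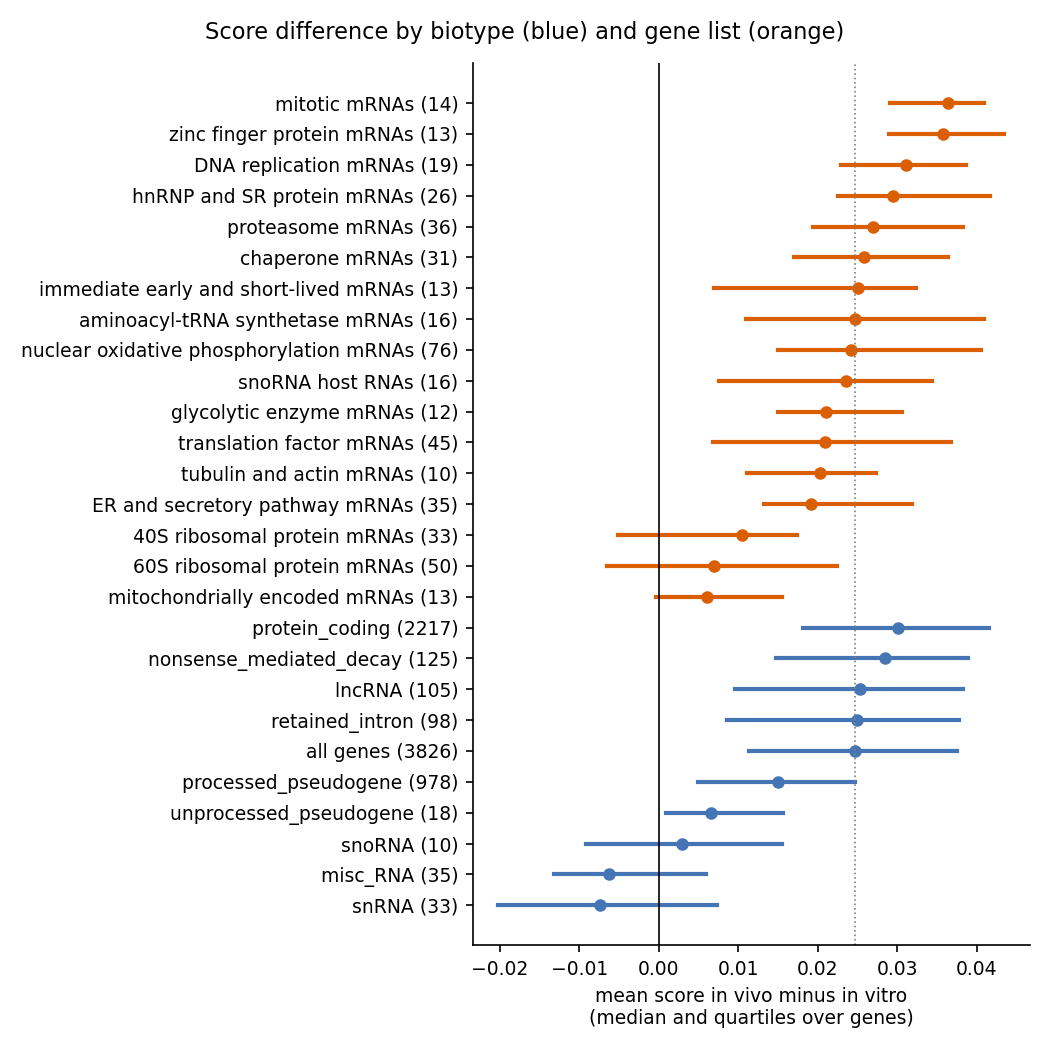
Mean score *in vivo* minus *in vitro* by transcript biotype (blue) and gene list (orange), with the median over genes as a point, the quartiles as a bar, the number of genes in brackets and the median of all 3826 genes as a dotted line. Of the lists of at least 10 genes drawn here, the mitochondrially encoded and ribosomal protein mRNAs have the lowest medians, from 0.00602 to 0.0105, and of the biotypes drawn misc_RNA and snRNA lie below 0.

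Biotypes differed in the size of the shift. The median difference was 0.0300 over 2217 protein_coding genes, 0.0285 over 125 transcripts marked for nonsense-mediated decay, 0.0253 over 105 lncRNAs and 0.0250 over 98 retained introns. It was 0.0150 over 978 processed pseudogenes, whose reads can derive from the parent genes. Small structural RNAs differed among themselves, with medians of -0.00743 over 33 snRNAs, -0.00630 over 35 misc_RNAs, 0.00294 over 10 snoRNAs and 0.0101 over the 4 copies of 5.8S rRNA. The median share of zeros was 49.7% *in vivo* and 44.5% *in vitro* for snRNAs and 62.3% and 52.9% for the 7 copies of 7SK. It was 78.6% and 79.3% for the 28 copies of 7SL and 14.96% and 37.61% for 5.8S rRNA. Of the 12 biotypes with at least 10 genes, 10 had a median above 0. With both profiles divided by their means 2 did, and with the median over nucleotides 6 did. By that last measure processed pseudogenes were at exactly 0. Their median share of zeros was 58.5% *in vivo* and 74.0% *in vitro*.

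Ribosomal protein and mitochondrially encoded mRNAs had small differences. The median difference was 0.00692 for mRNAs of the large ribosomal subunit and 0.0105 for those of the small subunit, and the mean score was lower *in vivo* in 17 of 50 and 12 of 33, against 10.2% of all genes. RPL11, which binds 5S rRNA in the ribosome, had a mean score of 0.211 *in vivo* and 0.217 *in vitro*, and RPS12 had 0.142 and 0.144. The acidic stalk proteins stood lower, RPLP1 at 0.179 and 0.209 and RPLP2, here a transcript with no annotated coding sequence, at 0.137 and 0.165. The 13 mitochondrially encoded mRNAs had a median difference of 0.00602, and 4 of them were below 0, among them MT-CO1 at -0.0150 and MT-ND4 at -0.0103.

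The elongation factors EEF1A1, which delivers tRNA to the ribosome, EEF2, which moves the ribosome along, and EEF1G, a subunit of the exchange factor that recharges EEF1A1, were also below 0, at -0.0109, -0.00809 and -0.0120, although the 45 translation factor mRNAs had a median of 0.0209. Of the 45 translation factor mRNAs 7 were below 0, against 10.2% of all genes. FTL, the light chain of the iron store ferritin, was at -0.0192, and its heavy chain FTH1 was at 0.00889. The transcript that stood for EEF1A1 is annotated as a retained intron and that for FTH1 as a target of nonsense-mediated decay. Over all genes the median difference fell from 0.0327 in the lowest of 5 equal groups of genes by mean RPKM to 0.0131 in the highest, so level moves with the difference and its part in the list medians was not tested.

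The values of other lists can be set beside the median of 0.0300 over all protein_coding genes. The median difference was 0.0364 for 14 mitotic mRNAs, 0.0357 for 13 zinc finger mRNAs and 0.0311 for 19 DNA replication mRNAs, all above it, as was the 0.0320 of 6 iron metabolism mRNAs. It was 0.0294 for 26 hnRNP and SR protein mRNAs and 0.0270 for 36 proteasome mRNAs. CDK1, the kinase that drives mitosis, had a mean score of 0.216 *in vivo* and 0.182 *in vitro*. FEN1, the flap nuclease of replication, had 0.184 and 0.148. Members of a list differed in sign. Below 0 were 1 of 26 hnRNP and SR protein mRNAs and 2 of 13 zinc finger mRNAs. The share was 10.2% of all genes and 5.05% of protein_coding genes. HNRNPA1, a splicing regulator and the most abundant hnRNP mRNA here, had 0.199 and 0.211, HNRNPA2B1 had 0.206 and 0.190, and HNRNPK had 0.214 and 0.161. Of the 3 most abundant zinc finger mRNAs, ZNF595 and ZNF593 were below 0, at -0.00925 and -0.0178, and ZNF22 was at 0.0310. PCNA, the sliding clamp of the polymerase, had 0.197 and 0.177.

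Further lists can be set beside the 0.0246 of all genes and the 0.0300 of protein_coding genes. The median difference was 0.0258 for the 31 chaperones, 0.0242 for 76 nuclear genes of oxidative phosphorylation and 0.0250 for 13 immediate early and short-lived mRNAs. It was 0.0237 for 7 histone variants, 0.0235 for the snoRNA hosts, 0.0247 for the synthetases and 0.0273 for the globins. It was lower for the glycolytic enzymes at 0.0210, the tubulin and actin genes at 0.0203, 35 genes of the secretory pathway at 0.0192, 4 selenoproteins at 0.0153, 7 erythroid regulators at 0.0117 and at 0.0101 the list of 5 noncoding RNAs that includes RN7SL2. Single members departed from their list, such as UQCRH of respiratory complex III, at 0.208 *in vivo* and 0.143 *in vitro*.

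The largest differences under the rule for named genes were in APOC1, PSMD7, HSP90AA1, HSP90AB1 and POMP. HSP90AB1, the constitutive cytosolic chaperone HSP90 beta (ENST00000371646, chr6:44247101-44253883 on GRCh38), had a mean score of 0.208 *in vivo* and 0.125 *in vitro*. Its stress-inducible relative HSP90AA1 (chr14:102080742-102087044, same build) had 0.212 and 0.128. PSMD7, a lid subunit of the proteasome (chr16:74296814-74306288, same build), had 0.201 and 0.113, and POMP, which helps to assemble the proteasome core, had 0.206 and 0.128. In each of these 4 the higher mean *in vivo* went with a lower Gini index, with differences of -0.152 in HSP90AB1 and -0.166 in PSMD7, the lowest value under the rule.

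The tracks along HSP90AB1 parted in more than 1 place. Its highest window of 51 nucleotides *in vitro*, at nucleotides 722 to 772, had a mean score of 0.869, and the same window had 0.334 *in vivo*. A further stretch with the higher score *in vitro* had 0.628 against 0.282 *in vivo* in the window centred on nucleotide 1706. The highest window *in vivo*, at nucleotides 54 to 104, reached 0.421. Over the whole transcript the *in vivo* track was nevertheless the higher in 414 of 503 windows. PSMD7 was alike, with a window at nucleotides 989 to 1039 at 0.920 *in vitro* and 0.235 *in vivo*, as was HSP90AA1, with 0.879 and 0.334 at nucleotides 857 to 907.

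Such a concentrated *in vitro* peak was not general. Over the 1367 genes open to the rule the highest window had a median of 0.376 *in vivo* and 0.412 *in vitro*. The excess *in vitro* had quartiles of -0.0235 and 0.114, and it was 0.448 in HSP90AB1 and 0.525 in PSMD7. Larger or like excesses, found after the values were seen, included those of ST13, an HSP70 cofactor, at 0.534, the membrane linker MSN at 0.514 and the cohesin subunit RAD21 at 0.503. SYF2 at 0.481 and EPCAM at 0.468 were also above HSP90AB1. APOC1, an apolipoprotein, had the largest mean difference with 0.184 *in vivo* and 0.0837 *in vitro*, but its r of 0.0705 was also the lowest under the rule. Its Spearman rho was 0.412, against a median rho of 0.456 over all genes.

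Among the 1367 genes open to the rule the lowest differences were in CIAO2A, PSMA1, MT-RNR2, MTCO3P12 and NEAT1. CIAO2A, a factor of iron-sulfur protein assembly, had a mean score of 0.164 *in vivo* and 0.212 *in vitro*, a difference of -0.0478. The transcripts that stood for CIAO2A and for PSMA1, a ring subunit of the proteasome, carry no annotated coding sequence. MT-RNR2, the 16S rRNA of the mitochondrial ribosome, had 0.183 and 0.221, and its Gini index was 0.0631 higher *in vivo*, the largest rise under the rule. RPLP2, RPLP1, NEAT1 and RPS24 followed it with rises of 0.0577, 0.0473, 0.0444 and 0.0385. ANP32B and HMGB2, acidic chromatin-associated proteins, were at the other end with -0.159 and -0.156.

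The likeness of the profiles within a transcript was measured as Pearson's r over its nucleotides. The median r was 0.495, with quartiles of 0.407 and 0.599, and it was under 0.3 in 225 genes and at least 0.7 in 370 genes. Only a median of 5.05% of nucleotides scored at least 0.5 in both profiles, against 11.8% *in vivo* and 10.9% *in vitro* taken alone. Level went with likeness, since the median r rose from 0.395 in the lowest of the 5 groups of genes by mean RPKM to 0.662 in the highest, and the Spearman rho of r with mean RPKM was 0.627 over the 3826 genes.

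**Figure D2:**
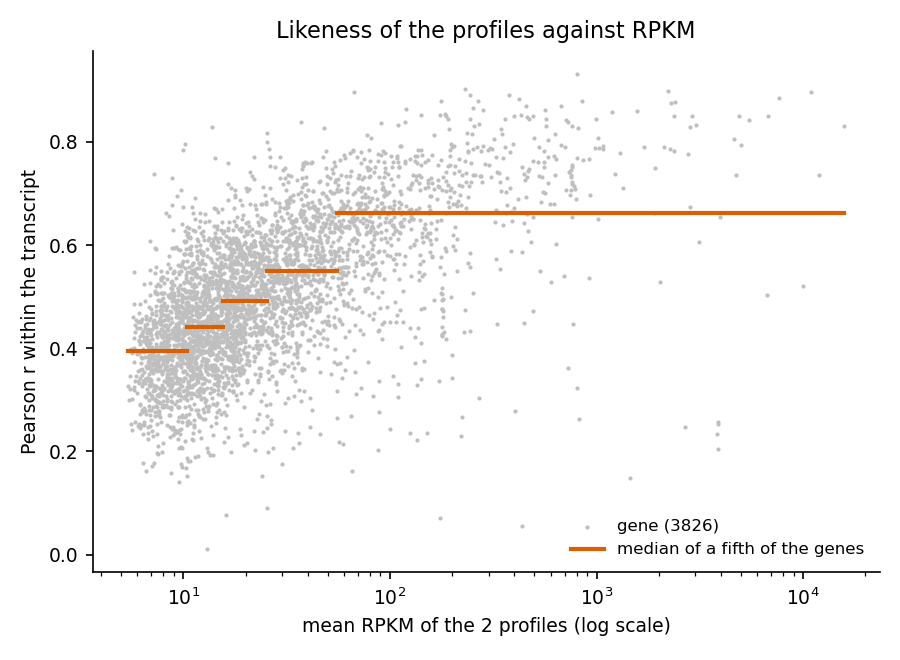
Pearson r of the *in vivo* and *in vitro* scores within each of the 3826 genes against the mean RPKM of the profiles on a log scale, with the medians of 5 equal groups of genes by RPKM as bars. The medians rise from 0.395 in the lowest to 0.662 in the highest group.

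The highest r under the rule was that of MT-CO2, subunit II of cytochrome c oxidase, at 0.897. RPS19, RPL32P18, RPL18 and MTCO2P12 followed between 0.880 and 0.877. The 13 mitochondrially encoded mRNAs had a median r of 0.843, and the ribosomal protein mRNAs had 0.726 for the large and 0.732 for the small subunit, against 0.495 over all genes. The globins had 0.718 and the nuclear oxidative phosphorylation genes 0.618, whereas mitotic mRNAs had 0.450 and zinc finger mRNAs 0.428. Their median RPKM *in vivo* was 6296 for the mitochondrially encoded mRNAs, 462 and 482 for the ribosomal proteins, 510 for the globins, 64.3 for oxidative phosphorylation, 20.6 for mitosis and 12 for zinc fingers, so r and level moved together across these lists, and the part of level in r was not tested.

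Some abundant RNAs had an r under the 0.662 of the highest RPKM group, although not all were under the 0.495 of all genes. The 4 copies of 5.8S rRNA had a median r of 0.244, 18S had 0.521 and 28S had 0.504. The STAG2 isoform had an r of 0.149 at an RPKM above 1000 in both profiles, and 85.1% of its nucleotides scored 0 *in vivo* and 92.1% *in vitro*. RPS20P24, ADAM10 and SNHG1, of lower RPKM, had the next lowest r among the 1367 genes open to the rule, at 0.206, 0.219 and 0.222. RPLP1 had an r of 0.529 despite an RPKM of 2112 and 1932, and in the window centred on nucleotide 286 its mean score was 0.0343 *in vivo* and 0.200 *in vitro*.

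Along protein-coding transcripts the scores were lower at the 3′ than at the 5′ end in both conditions. In the first twentieth of the transcript the mean score was 0.223 *in vivo* and 0.206 *in vitro*, and in the last it was 0.0891 and 0.0756. The gap was widest in the seventh twentieth, at 0.0407, and narrower at both ends, at 0.0167 and 0.0135. In 390 protein-coding genes with all regions scored and a length equal to the reference, the median difference was 0.0360 in the coding sequence and 0.0239 in each untranslated region. On the deposited scale the coding sequence was higher *in vivo* in 89.7% of these genes, the 5′ untranslated region in 63.8% and the 3′ untranslated region in 76.7%.

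Sequence next to the scored nucleotide separated the scores more than the nucleotide itself. This reading used the 2148 genes whose transcript has the same length in the reference, of which 628 were protein_coding and 977 processed pseudogenes, whose reads can derive from parent genes. By the base at the scored position the median of the mean score *in vivo* ranged from 0.112 at C to 0.170 at A. By the base 1 position downstream it ranged from 0.0684 before G and 0.0735 before C to 0.202 before U and 0.231 before A. Whether the deposited scores are shifted by 1 nucleotide against the transcript cannot be told apart from a preference for these neighbours.

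The difference between the conditions followed the same neighbours. It had a median of 0.0396 before A and 0.0375 before U, but -0.00285 before C and 0.000227 before G. Read by the 2 bases downstream, the largest differences were before ApC, with medians of 0.389 *in vivo* and 0.283 *in vitro*, and before ApU, with 0.381 and 0.281. UpU had 0.220 and 0.147, and UpC had 0.319 and 0.242. Before ApG the values were 0.114 and 0.117, and before GpG they were 0.0227 and 0.0241, the lowest of the 16 pairs in both conditions.

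The difference also moved with purine content, which was examined after the values were seen. The same 2148 genes were divided into 34992 windows of 51 nucleotides. In 3956 windows with at most 20 purines the mean score was 0.170 *in vivo* and 0.132 *in vitro*. With 36 to 40 purines the means were 0.173 and 0.171, and in 162 windows with at least 41 purines, from 125 genes, they were 0.176 and 0.237. The score was lower *in vivo* in 58.6% of those windows, against 26.4% of the windows with at most 20 purines. Between the classes the *in vivo* mean stayed within 0.160 to 0.176, while the *in vitro* mean ranged from 0.132 to 0.237.

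The purine-rich windows are shown by the 25 nucleotides with the largest *in vitro* excess in 4 of the genes with the highest *in vitro* score among coding-sequence or noncoding windows with at least 41 purines. They were chosen after the values were seen. Capitals mark nucleotides whose score was at least 0.3 higher *in vitro*, and all sequences are from GENCODE release 44 on GRCh38.
HSP90AB3P: gAAgaAGAGaAAGGUGAGaAAGAAG
POLE3: AUGAggACaaUgaUGAAgACgAAgA
BRD7: ACaaggACaGAAaGcGgAAAaaGaG
HMGB2: GAAGaacgaACCAgAAgaUgAggAG

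HSP90AB3P is a processed pseudogene of HSP90AB1 and may hold its reads. Its sequence (chr4:87892532-87892556, plus strand) has 24 purines of 25 and had a mean score of 1.00 *in vitro* and 0.465 *in vivo*. POLE3, a histone-fold subunit of DNA polymerase epsilon (chr9:113408860-113408884, minus strand), had 0.838 *in vitro* and 0.341 *in vivo* in its coding sequence. BRD7, a bromodomain protein (chr16:50368151-50368175, minus strand), had 0.668 and 0.315, and HMGB2 (chr4:173332137-173332161, minus strand) had 0.861 and 0.449.

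Windows of 25 nucleotides with the largest difference in either direction were also taken from the named genes whose length matched the reference. The 4 shown are from the 10 strongest and were picked to show both directions in HMGB2, a mitochondrial rRNA and the largest rise. Capitals mark nucleotides whose score differed by at least 0.3 in the direction of the window.
HMGB2, lower *in vivo*: CGuGCCAagGGCAAAAGUGAAGCAG
MT-RNR2, lower *in vivo*: ucuUaCuuUUAACCAgUGaAAuugA
STAG2, higher *in vivo*: CAAACAAUCCCGAAGCGCCaCCAaa
HMGB2, higher *in vivo*: AUuggGUGaAaUgugGucugagcaG

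The HMGB2 stretch that was lower in cells (chr4:173332199-173332223, minus strand, coding sequence) had a mean score of 0.147 *in vivo* and 0.741 *in vitro*, and all 25 nucleotides had that sign. The one that was higher (chr4:173332884-173332908, minus strand, coding sequence) had 0.387 and 0.120. In MT-RNR2 (chrM:2658-2682, plus strand) the values were 0.0751 and 0.491, again with 25 of 25 nucleotides lower *in vivo*. The STAG2 stretch (chrX:123960581-123960605, plus strand, in a transcript with no annotated coding sequence) had 0.752 *in vivo*, and every nucleotide of it scored 0 *in vitro*.

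The icLASER profiles of the same cells, made with a light-activated reagent that reads the solvent exposure of purines, met the same rule for 3543 of the 3826 genes. In these genes the mean icLASER score differed by a median of 0.00832 between *in vivo* and *in vitro*, beside 0.0243 for icSHAPE. The median within-transcript r was 0.598 for icLASER and 0.502 for icSHAPE. Across genes the Spearman rho between the reagents was 0.656 for r, 0.224 for the log2 RPKM ratio and -0.152 for the mean-score difference, over 3543 genes that share library source and level.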

How the data were processed

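The authors aligned reads to the Ensembl release 88 transcriptome, calculated the scores with the icSHAPE pipeline without its minimum coverage filters and deposited 1 pooled profile per condition. The submitters' processing notes name Trimmomatic, Bowtie2 and GRCh38. The deposited RPKM is normalized for length and library size, and the deposited score of each nucleotide runs from 0 to 1. No values of RPKM times length repeated in these 2 profiles, so whole reads could not be recovered and depth per transcript is unknown. The paper gives read depth by dataset. Scores outside 0 to 1, 3 *in vivo* and 13 *in vitro*, were left out.

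With Python 3.11.15, numpy 2.4.6, pandas 2.3.3 and scipy 1.17.1, RPKM ratio, mean-score difference, Gini index and Pearson r were computed over nucleotides scored in both profiles, and drawn with matplotlib 3.10.9. Differences are *in vivo* minus *in vitro*. The code was tested on simulated data and returned the values put in. Biotypes, names and coordinates are those of GENCODE release 44, a later annotation, and sequence was read only where length matched. Named genes were the 5 highest and 5 lowest for each measure among genes with a symbol, an RPKM of at least 20 in both profiles and at least 300 nucleotides scored, up to 3 of highest RPKM in each list and each noncoding biotype, and the rRNA rows. Members and lists were chosen with earlier results of these data known. Genes outside that rule (the structural RNA and histone families, WDR74, other genes past 2-fold, mitochondrial and purine-rich examples) were chosen after their values were seen. Alternatives changed the transcript chosen, the filters, the summary of scores, their scaling and the measure of likeness.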

Additional observations from a re-analysis of the deposited data

How the results depend on the processing

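No paired analysis was possible because each profile pools its replicates, and no library could be left out for the same reason. Division of each profile by its mean turned the median mean-score difference to -0.00248 (protein_coding -0.000621, processed_pseudogene -0.0042, lncRNA -0.00144), left 2 of 12 biotypes above 0, and put 0.627% of genes at least 0.05 higher and 1.7% at least 0.05 lower *in vivo*. With scores of 0 left out the Gini difference was 0.07. With the 4 bases weighted equally the mean-score difference was 0.0193 over the 2148 genes with sequence, beside 0.0194 over the same genes without weights. It was 0.023 as a median over nucleotides, with 6 of 12 biotypes above 0 and processed_pseudogene at 0. As a difference in the share of scores of at least 0.5 it was 0.00773. With an RPKM of at least 20 in both profiles, the log2 ratio was 0.147, the score difference 0.0173, the Gini difference -0.0465 and r 0.588, with 5.11% of genes at least 0.05 higher and 0.176% lower. With at least 500 nucleotides scored they were 0.114, 0.0277, -0.0712 and 0.479, with 0.337% of genes 2-fold higher, 0.842% 2-fold lower and 0% at least 0.05 lower in score. With length equal to the reference they were 0.149, 0.0217, -0.0545 and 0.512. Without pseudogenes, an alternative chosen after seeing the data, they were 0.0849, 0.0288, -0.0753 and 0.477, with 0.145% of genes 2-fold higher and 6 of the 8 biotypes that remain above 0. All transcripts gave 0.292% 2-fold higher and 1.45% lower, and division of the ratio by its median, which sets that median to 0, gave 0.314% higher. The median r was 0.456 as Spearman rho, 0.469 with the longest transcript and 0.392 over nucleotides above 0 in a profile. Of all values recomputed, 51 stayed within the 95% interval of the median over genes (counts, within 1.5 times), 48 moved by more and 5 reversed. That interval reflects the spread and number of genes, which are not replicates, and not the error between libraries. Depth per transcript is unknown, so no counting error is given.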
